A study of Mus musculus with 18 samples.

Results

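The genes described here are 10 markers of the epithelium of the lung: the surfactant protein genes Sftpa1, Sftpb, Sftpc and Sftpd, the type II cell genes Lamp3 and Slc34a2, the type I cell gene Ager, the club cell gene Scgb1a1, and the transcription factor genes Nkx2-1 and Foxa2. They were chosen as a list of known markers, and where a gene had several probe sets the one with the greatest average signal across the 18 arrays was read. A probe set of its own was found for 9 of the 10, among 18193 genes with one on the array. The only probe set of Lamp3 also carries the name of Ppid, a cyclophilin gene. Its log2 signal of 10.22 to 12.37 therefore cannot be assigned to Lamp3, which is left out of every count below.

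The study compared side population (SP) cells, a fraction defined by its efflux of a DNA dye, with the remaining (nonSP) cells of 3 mouse lung carcinoma lines on Affymetrix 3' expression arrays. Per the labels, the lines A2C12, betaD5 and cRAF_cMYC are spontaneously transformed lines derived from the lung tumours of mice, 8 months old, that carried a c-myc and a c-raf transgene. The 6 groups were A2C12 SP, A2C12 nonSP, betaD5 SP, betaD5 nonSP, cRAF_cMYC SP and cRAF_cMYC nonSP, with 3 arrays each made from 200 ng of total RNA. All groups come from animals that carried both transgenes, so no group stands for untransformed lung, and the labels used here do not name the promoter of either transgene. The labels number the replicates without saying whether they were separate cultures or sorts, so each p-value measures the spread between these arrays, which may be technical.

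Alveolar type II cells make surfactant, a film of lipid and protein that lowers surface tension in the alveolus, and type I cells form the thin surface across which gas is exchanged. Club cells are secretory cells of the airway. NKX2-1 and FOXA2 are transcription factors of the foregut and lung epithelium that bind upstream of surfactant and secretoglobin genes, and lung adenocarcinoma cells can keep or lose this programme.

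The promoters of Sftpb and Sftpa1 are shown because both genes encode surfactant proteins. Foxa2 and Nkx2-1, whose products bind such promoters, are members of the same list. Sftpb, unlike Sftpa1, had a signal above background in these lines, and whether matches go with signal was not tested. The sequences are the 250 bases before the annotated start site, from RefSeq in build GRCm38.p6, read 5′ to 3′ on the plus strand at chr6:72304360-72304609 for Sftpb and at chr14:41131538-41131787 for Sftpa1. Capitals mark matches on either strand to TGTTTNC, a spelling of the forkhead motif, and to CTCAAG, a spelling of the NKX2-1 core.
Sftpb: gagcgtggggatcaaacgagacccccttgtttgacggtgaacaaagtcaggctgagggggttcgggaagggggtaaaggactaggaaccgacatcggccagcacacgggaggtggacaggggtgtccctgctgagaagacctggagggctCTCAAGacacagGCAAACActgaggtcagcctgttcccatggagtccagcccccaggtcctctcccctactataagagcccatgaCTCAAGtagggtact
Sftpa1: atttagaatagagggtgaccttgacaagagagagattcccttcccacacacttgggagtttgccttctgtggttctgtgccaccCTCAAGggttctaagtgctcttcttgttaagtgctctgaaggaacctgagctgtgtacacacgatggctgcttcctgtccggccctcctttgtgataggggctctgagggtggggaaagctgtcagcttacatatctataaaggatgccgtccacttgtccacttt

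Counting the base before the start site as -1, the Sftpb promoter held the forkhead spelling on the minus strand at -88, and CTCAAG on the plus strand at -100 and -15. The Sftpa1 promoter held CTCAAG on the plus strand at -166 and no match to TGTTTNC in the 300-base window, which includes 50 bases after the start. Among 32851 promoter windows of that length, 20.5% held TGTTTNC, 15.9% held CTCAAG and 3.34% held both. The stricter spelling TGTTTAC, in 3.65% of windows, was not in the Sftpb window. The spellings were tried after the sequences had been seen, and a match is a description of letters, not of binding. A further NKX2-1 spelling that was tried, CCACTNNAG, in 4.6% of windows, matched the Sftpb window after the start site. Of the 10 members, 7 had a window in the table, and Sftpc, Sftpd and Scgb1a1 did not. Lamp3 held TGTTTNC at -162 and -92, the latter as TGTTTAC, and a Foxa2 window held CTCAAG on the minus strand. The windows of Ager, Slc34a2 and Nkx2-1 held neither TGTTTNC nor CTCAAG, and Ager too had a signal above background.

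Background was set on each array from 150 probe sets of 135 genes of families that serve mostly other tissues: olfactory, vomeronasal and taste receptors, keratin-associated proteins and beta-defensins. The limit of an array was the 95th percentile of these probe sets, and it lay between 6.18 and 7.53 log2 units. Lying above it is a statement about the signal of a probe set and does not by itself show a transcript, since Cd3e, a T cell gene, was also above the limit on 18 of 18 arrays. The arrays were not on a common scale: their medians ran between 5.8 and 6.06 in A2C12, between 6.48 and 6.72 in betaD5 and between 6 and 6.53 in cRAF_cMYC. Comparisons between lines of the genes discussed are therefore given as deposited and, for the main ones, again with each array centred on its median.

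2 pairs of arrays stood apart from their labels. Each nonSP array was compared with the arrays of both fractions, leaving out its own pair. The array labelled betaD5 nonSP replicate 1 correlated over all genes at up to 0.99 with arrays labelled cRAF_cMYC. With those labelled betaD5 it correlated at no more than 0.963. The array labelled cRAF_cMYC nonSP replicate 3 had a highest correlation of 0.992 with a betaD5 array and of 0.966 with a cRAF_cMYC array of another pair. Within A2C12 the nonSP arrays correlated at 0.986 to 0.991 with arrays of the other pairs. The labels were kept, and the members' results on lines are also given without the SP and nonSP arrays of these 2 pairs. Results of the wider lists below are given with all arrays. Those pairs were picked because their whole profiles were unlike their group, so leaving them out makes the groups more alike within.

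Most of the 9 measured members lay at or below background in every line. Of the 9 measured members, 3 (Sftpb, Ager and Foxa2) had a group mean above the limit in both fractions of A2C12 and betaD5, and 4 (these and Slc34a2) in both fractions of cRAF_cMYC. Sftpa1, Sftpc, Sftpd, Scgb1a1 and Nkx2-1 were below the limit on 18 of 18 arrays. At the 90th percentile 5 of 9 were above background in every group but A2C12 SP. The share of all genes above the limit was not counted, so these counts and those of the wider lists do not show whether markers were low beside other genes. The 40th percentile over all genes was below the limit on every A2C12 array and above it on both arrays of betaD5 replicate 1. It was also above the limit on cRAF_cMYC nonSP replicate 2 (6.847, against 6.595), and on cRAF_cMYC SP replicate 2 both were 6.792. In bulk samples, fewer cells of a type and less RNA per cell cannot be told apart.

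**Figure D1:**
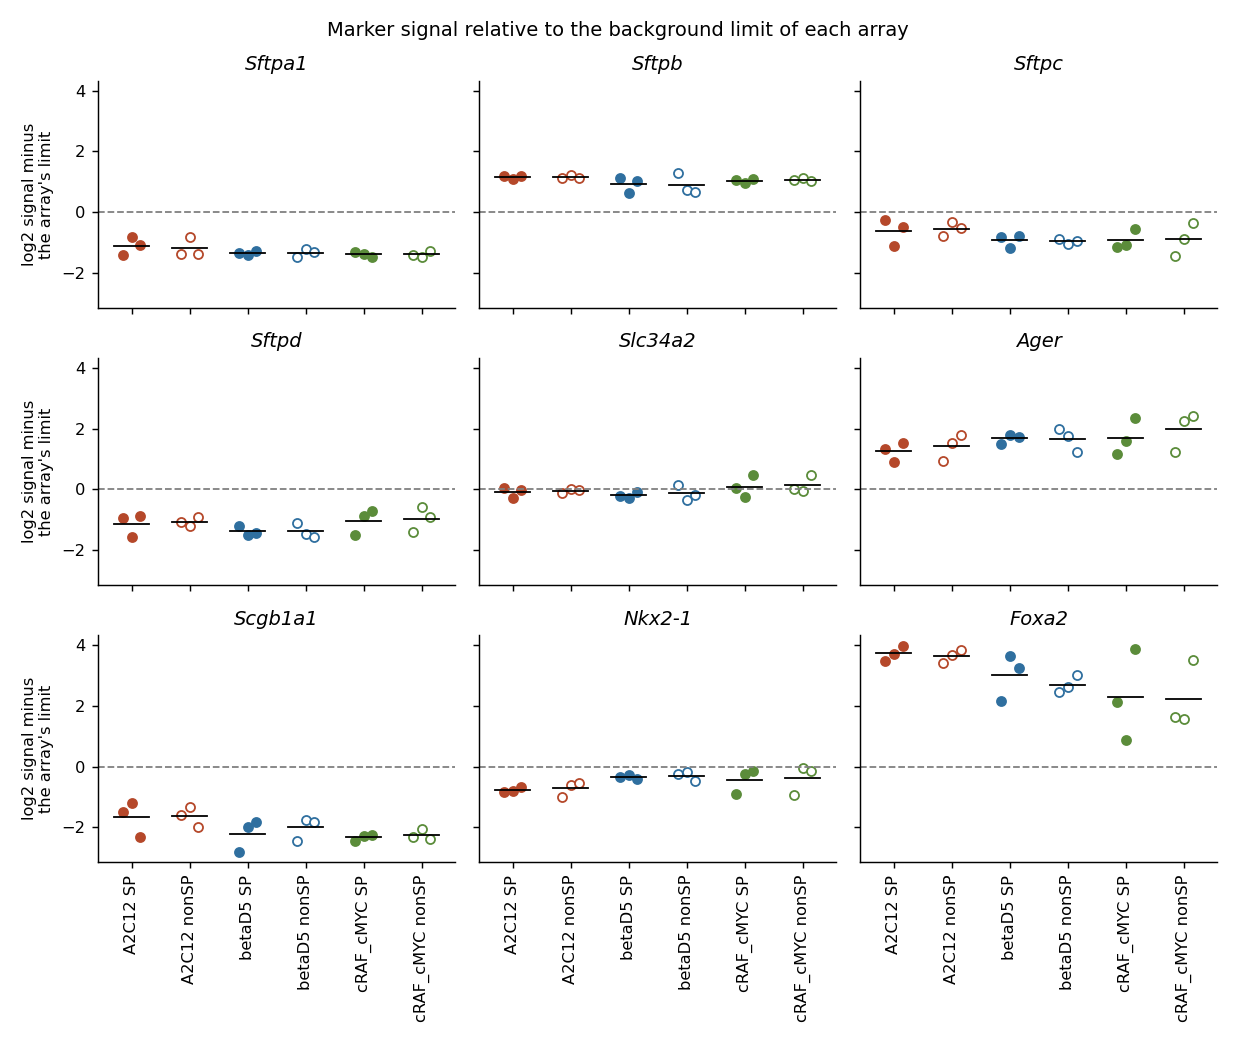
Log2 signal minus the background limit of the same array (vertical axis, log2 units) for the 9 measured markers, by line and fraction; filled points are SP arrays, open points nonSP arrays, black lines group means of 3 arrays, and the dashed line is the limit. Sftpa1, Sftpc, Sftpd, Scgb1a1 and Nkx2-1 lie below the dashed line on all 18 arrays, Sftpb, Ager and Foxa2 above it on all 18, and Slc34a2 above it on 7.

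The surfactant proteins divide into collectins of innate defence (Sftpa1 and Sftpd) and hydrophobic proteins that spread the lipid film (Sftpb and Sftpc). Sftpa1 signals lay between 4.82 and 6.21, which was 0.81 to 1.47 log2 units below the limit, and its other probe set lay lower, at 3.18 to 4.52. Sftpd signals lay between 5.06 and 6.02, at least 0.58 below the limit. Sftpc, the gene most used to mark type II cells, lay between 5.13 and 6.60 with a highest value of 0.25 below the limit, and its other probe set between 3.15 and 4.76. Neither probe set of Sftpa1 or Sftpc, nor the one of Sftpd, passed the limit on any array of any line.

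Sftpb, by contrast, was above the limit on every array. Its log2 signal was 7.57, 7.71 and 7.37 in A2C12 SP cells, against 7.70, 7.64 and 7.30 in A2C12 nonSP cells. It was 7.87, 7.78 and 8.27 in betaD5 SP cells, against 7.96, 7.89 and 8.19 in betaD5 nonSP cells. It was 7.66, 7.76 and 7.70 in cRAF_cMYC SP cells, against 7.63, 7.73 and 7.79 in cRAF_cMYC nonSP cells. The fractions overlapped in every line, and as deposited the 6 betaD5 arrays were all above the 6 A2C12 arrays. Relative to each array's own limit the order was the other way, with A2C12 nonSP cells 1.16 above it on average and betaD5 nonSP cells 0.89. All 18 values were 0.62 to 1.28 above the limit, and 10 of 18 were above the 99th percentile of the background probe sets. Across the 18 arrays the Sftpb signal correlated at 0.866 with the median of the background probe sets, and the gene named as most similar in pattern was Vmn2r10 (r = 0.962), a vomeronasal receptor gene that belongs to a family used for the background. The next were Clca4b (0.948) and Sorcs1 (0.945), and all these correlations share the scale of the arrays.

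Slc34a2, the phosphate carrier of type II cells, stayed near the limit. Its signal ran from 6.16 to 6.45 in A2C12, from 6.50 to 7.33 in betaD5 and from 6.54 to 7.26 in cRAF_cMYC. It passed the limit on 2, 1 and 4 of the 6 arrays of these lines, by at most 0.49, and on none did it pass the 99th percentile. Without replicate 3, the pair labelled cRAF_cMYC that stood apart, its cRAF_cMYC means were below the limit too, and without replicate 2 its A2C12 SP mean was above it. Its most similar genes over the 18 arrays were Rasgrp3 (0.948), Ms4a4b (0.947) and Pnmal2 (0.942), and its own correlation with the background median was 0.846.

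Ager encodes a receptor for advanced glycation end products and is abundant in type I cells. The probe set with the higher mean gave 7.72, 7.54 and 7.71 in A2C12 SP cells, against 7.51, 7.94 and 7.96 in A2C12 nonSP cells. It gave 8.22, 8.96 and 8.98 in betaD5 SP cells, against 8.67, 8.94 and 8.76 in betaD5 nonSP cells, and 7.77, 8.40 and 8.95 in cRAF_cMYC SP cells, against 7.78, 8.85 and 9.20 in cRAF_cMYC nonSP cells. These values overlapped between fractions in each line and were 0.90 to 2.43 above the limit. The other probe set of Ager passed the limit on 9 of 18 arrays by at most 0.52 and on none passed the 99th percentile, so the 2 probe sets disagree on whether Ager stood clear of background. The genes most like the first probe set were Nono (0.975), Lrrc41 (0.97) and Fbh1 (0.97).

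Scgb1a1, the secretoglobin of club cells, had signals between 3.84 and 5.73, and its highest value relative to the limit was -1.21. Nkx2-1, the lineage factor, lay between 5.51 and 7.06. Its closest approach to the limit was 0.05 below it, and its signal correlated at 0.969 with the median of the array over the 18 arrays. For the other measured members apart from Foxa2 that correlation was between 0.397 and 0.84, and for Foxa2 it was -0.03.

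Foxa2, a forkhead factor of endoderm, was above background on every array and varied between arrays of betaD5 and cRAF_cMYC by more than a log2 unit. Its log2 signal was 9.87, 10.35 and 10.16 in A2C12 SP cells, against 9.97, 10.08 and 10.02 in A2C12 nonSP cells, a narrow band. In betaD5 it was 8.87, 10.79 and 10.48 in SP cells, against 9.13, 9.78 and 10.56 in nonSP cells. In cRAF_cMYC it was 8.74, 7.67 and 10.49 in SP cells, against 8.20, 8.15 and 10.27 in nonSP cells. The fractions overlapped in each line. The lowest betaD5 values were those of replicate 1 and the highest cRAF_cMYC values those of replicate 3, the pairs that stood apart from their labels. Foxa2 was 0.88 to 3.98 above the limit on 18 of 18 arrays and above the 99th percentile on 17.

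The genes most like Foxa2 over the 18 arrays were Crybg1 (0.959), Vnn1 (0.958) and Anxa8 (0.953). With centred arrays they were Tns4 (0.968), Crybg1 (0.964) and Tinagl1 (0.963). For Sftpb, Slc34a2 and Ager the most similar genes on the centred scale were Zfp936 (0.904), Smcp (0.868) and Nono (0.929). Each r is a description over 18 arrays that share line, fraction and scale.

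**Figure D2:**
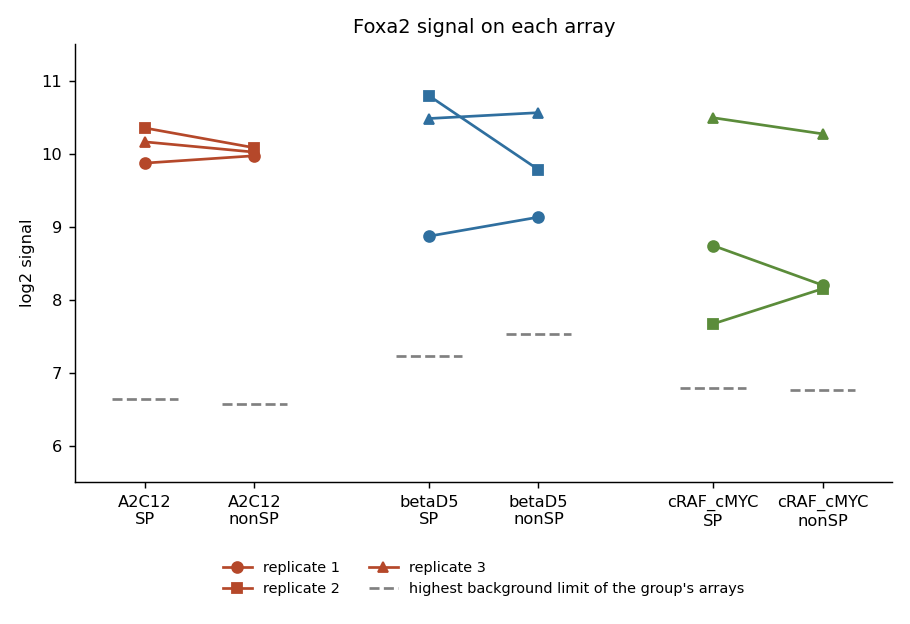
Log2 signal of Foxa2 on each array (vertical axis), SP left of nonSP in each line; symbols mark the replicate number, lines join same-numbered arrays, and grey dashes are the highest background limit among the arrays of the group. The 6 A2C12 arrays lie between 9.87 and 10.35, while the cRAF_cMYC arrays of replicates 1 and 2 lie between 7.67 and 8.74 and those of replicate 3 at 10.49 and 10.27.

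The comparison the study set out to make is SP against nonSP cells within a line. None of the 9 measured members passed the test between fractions in any line. In limma's test across 18193 genes, with Benjamini-Hochberg adjustment and 3 arrays per group, 0 of 9 members and 0% of all genes passed an adjusted p of 0.05 in A2C12, betaD5, cRAF_cMYC or the mean of the lines. At an unadjusted p under 0.05 the genes numbered 6, 18, 26 and 44, and none was a member. This fit leaves out the pairs, although same-numbered arrays correlated at 0.548 to 0.932 once group means were subtracted. It is therefore conservative for a difference within pairs, and its 0% is weak ground for saying that no gene differed. With same-numbered arrays paired, 0% of genes were called again, while 492, 1921, 1323 and 1912 had an unadjusted p under 0.05. These included 1 member in 1 comparison, Scgb1a1 in betaD5.

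The members' differences, SP minus nonSP, ran from -0.15 to 0.10 in A2C12, from -0.29 to 0.23 in betaD5 and from -0.24 to 0.10 in cRAF_cMYC on the log2 scale. Over the mean of the lines their median was -0.06, against -0.01 for all genes. In the paired fit the 95% intervals of the members reached 0.19 to 0.48 to either side within a line and 0.11 to 0.28 for the mean of the lines. Differences smaller than that could not have been told from 0.

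Pair by pair, the surfactant genes had no common direction. Sftpa1, Sftpb and Sftpc were higher in SP cells in 5 of 9 pairs each, and the differences of Sftpb, the one above background, lay between -0.12 and 0.08. Sftpd was lower in SP cells in 7 of 9 pairs, by at most 0.16. Slc34a2 lay between -0.34 and 0.08. Sftpa1, Sftpc and Sftpd were below the limit on every array and Slc34a2 lay around it, and for these a difference describes the signal of the probe set rather than a transcript level.

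Scgb1a1 was lower in SP cells in 8 of 9 pairs, with a difference of -0.29 in betaD5 (95% interval -0.54 to -0.05, limma's paired fit, adjusted p = 0.441) and of -0.12 over the mean of the lines (adjusted p = 0.535). Its signal was below the limit on every array of both fractions. Ager was lower in SP cells in 6 of 9 pairs, with a mean difference of -0.15 (95% interval -0.34 to 0.04, adjusted p = 0.577 in the paired fit). Its other probe set was lower in 5 and higher in 4, with differences between -0.16 and 0.20. Nkx2-1 was lower in 6 of 9 pairs, by at most 0.25.

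Foxa2 had the widest pair differences, from -0.48 to 1.0, and was higher in SP cells in 5 of 9 pairs. Its mean difference was 0.14 (95% interval -0.14 to 0.42, adjusted p = 0.737 in limma's paired fit). The difference of 1.0 came from betaD5 replicate 2. The Gapdh 3'/5' ratio, a sign of RNA integrity on these arrays, is given here in log2 units. In that pair it was 0.759 on the SP array, against 0.096 on the nonSP array. In betaD5 replicate 3 it was 0.974 on the SP array, against 0.049 on the nonSP array, and there the Foxa2 difference was -0.07. In cRAF_cMYC replicate 2 it was 0.002 on the SP array, against 0.559 on the nonSP array, and there the Foxa2 difference was -0.48, the lowest of the 9 pairs. In cRAF_cMYC replicate 1 it was 0.286 on the SP array, against 0.226 on the nonSP array. There the Foxa2 difference was 0.55, the next highest after 1.0. The remaining pairs are not set out here, and the ratio as a cause of the differences was not tested. A covariate was then added to the paired fit, the mean of this log2 ratio and that of Actb. With it the betaD5 difference of Foxa2 was -0.21 (limma, adjusted p = 0.91), against 0.23 without it. For Ager the same change gave -0.44 (adjusted p = 0.319), against -0.07 without it. The mean over the lines moved likewise, to 0.01 for Foxa2 (adjusted p = 0.987), against 0.14 without the covariate. For Ager it moved to -0.26 (adjusted p = 0.174), against -0.15.

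The SP differences did not pass a test of their own between lines. For betaD5 against A2C12, cRAF_cMYC against A2C12 and cRAF_cMYC against betaD5, 0 of 9 members and 0% of all genes passed in limma without pairs. At an unadjusted p under 0.05 there were 9, 10 and 0 genes, in a fit that is again conservative because it leaves out the pairs. In limma's paired fit 0 of 9 members passed as well. The smallest adjusted p of a member there was 0.756 for betaD5 against A2C12 and 0.967 for cRAF_cMYC against A2C12.

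**Figure D3:**
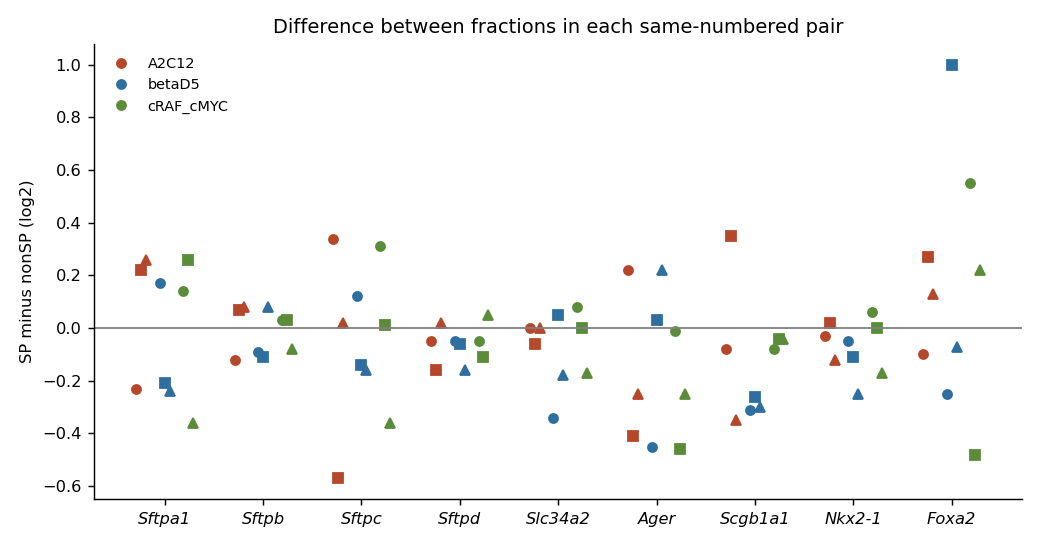
SP minus nonSP difference in log2 signal (vertical axis) for each same-numbered pair of arrays and each measured marker; colours are lines, and circles, squares and triangles are replicates 1, 2 and 3. Most points lie within 0.5 of 0, and the farthest is Foxa2 in betaD5 replicate 2 at 1.0.

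The lines were compared among nonSP cells, so that each comparison stayed within a fraction. As deposited, 3 of 9 members were lower in A2C12 than in betaD5 and none was higher. This count says little about the members, since 58.1% of all genes passed in this comparison and 56.2% were lower in A2C12. The median difference of the 9 members was -0.47, against -0.73 for all genes. After centring, 0 of 9 members passed, where 15.6% of all genes did.

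Nkx2-1 averaged 5.68 ± 0.13 in A2C12 nonSP cells, against 6.83 ± 0.34 in betaD5 nonSP cells (SD, n = 3 each, limma's adjusted p = 0.00426). Both groups were below the limit on every array, so no fold is given. Ager averaged 7.80 ± 0.26 in A2C12, against 8.79 ± 0.13 in betaD5, a difference of -0.98 (SE 0.34, adjusted p = 0.0227). Slc34a2 averaged 6.34 ± 0.16 in A2C12, against 7.0 ± 0.29 in betaD5, a difference of -0.65 (SE 0.26, adjusted p = 0.0383), with 1 of 3 arrays above the limit in each group.

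With centred arrays none of these calls held. The adjusted p was 0.128 for Nkx2-1, the difference was -0.29 for Ager (adjusted p = 0.551) and 0.04 for Slc34a2 (0.933), so that Slc34a2 changed sign. The Ager call as deposited was also lost without betaD5 nonSP replicate 2 (-0.91, adjusted p = 0.069) or 3 (-1.0, 0.0521), or without A2C12 nonSP replicate 1 (-0.84, 0.082). Leaving out both arrays of A2C12 pair 3 gave -1.06 for Ager, with an adjusted p of 0.0521. The Slc34a2 call was lost without betaD5 nonSP replicate 2 (-0.74, 0.0508) or 3 (-0.49, 0.159), or without A2C12 nonSP replicate 1 (-0.70, 0.0581), 2 (-0.69, 0.0606) or 3 (-0.56, 0.124). Sftpb was at -0.47 as deposited (adjusted p = 0.0593) and at 0.23 centred (0.402), so that it also changed sign. As deposited it passed without pair 1 of cRAF_cMYC (0.0378), where 64.7% of all genes did. The Nkx2-1 call as deposited was kept whichever array or pair was left out.

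**Figure D4:**
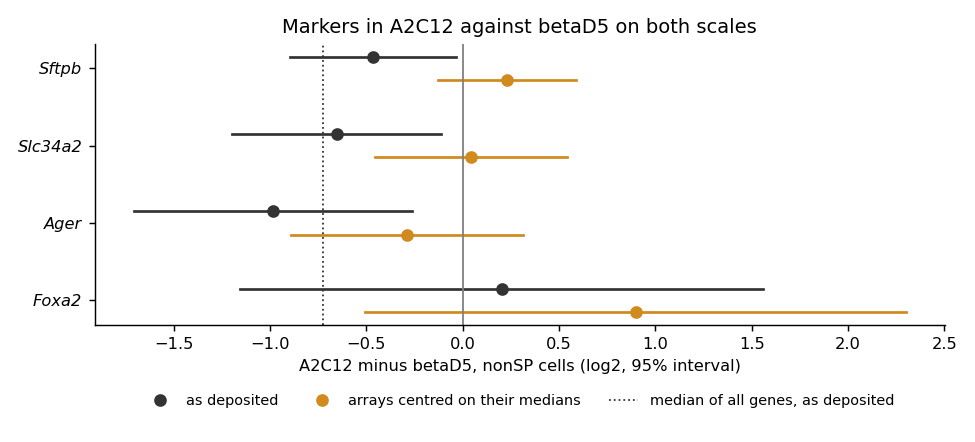
Difference in log2 signal between A2C12 and betaD5 nonSP cells (horizontal axis, A2C12 minus betaD5) for the 4 markers above the limit on at least 1 of these arrays, with 95% intervals, as deposited (dark) and with arrays centred on their medians (orange); the dotted line is the median of all genes as deposited, -0.73. Slc34a2 lies at -0.65 as deposited and at 0.04 once centred, and Sftpb at -0.47 and 0.23.

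Between A2C12 and cRAF_cMYC, 0 of 9 members passed as deposited, where 21.3% of all genes did and 19.4% were lower in A2C12. At an unadjusted p under 0.05 there was 1 member, Ager (-0.81, limma's adjusted p = 0.097). After centring, 0 of 9 members and 12.9% of all genes passed. Between cRAF_cMYC and betaD5, 0 of 9 members and 0% of all genes passed, as deposited and centred. At an unadjusted p under 0.05, 2086 genes and no member were found as deposited. The comparisons between lines share their nonSP arrays, so they are not independent of each other.

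Foxa2 averaged 10.02 ± 0.05 in A2C12 nonSP cells, 8.87 ± 1.21 in cRAF_cMYC nonSP cells and 9.82 ± 0.71 in betaD5 nonSP cells (SD, n = 3 each). No pair of lines passed the test. The difference was 1.15 for A2C12 minus cRAF_cMYC (limma, adjusted p = 0.196), 0.20 for A2C12 minus betaD5 (0.792) and -0.95 for cRAF_cMYC minus betaD5 (0.475). With centred arrays these were 1.53 (adjusted p = 0.153), 0.90 (0.407) and -0.63 (0.986).

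Without the 2 pairs that stood apart, Foxa2 passed in both comparisons with cRAF_cMYC. It was 1.85 higher in A2C12 than in cRAF_cMYC (95% interval 1.19 to 2.51, limma's adjusted p = 0.000647), where 17.5% of all genes passed. It was lower in cRAF_cMYC than in betaD5 by a difference of -1.99 (95% interval -2.72 to -1.27, adjusted p = 0.00156), where 13.5% of all genes passed. With the arrays centred as well, the values were 2.20 (adjusted p = 0.000564, 19.8% of all genes) and -1.59 (adjusted p = 0.0162, 12.2% of all genes). Leaving out both arrays of cRAF_cMYC replicate 3 was enough to bring the call against A2C12 (1.85, adjusted p = 0.0185), where 13.6% of all genes passed. With so many genes past the threshold, and with arrays left out for their profiles, these values describe the remaining arrays.

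Other members also moved with those 2 pairs. Without them, Sftpa1 was called lower in A2C12 than in betaD5 (limma's adjusted p = 0.0167) beside Ager, Nkx2-1 and Slc34a2, where 61.1% of all genes passed, although its signal was below the limit throughout. With centred arrays as well, Nkx2-1 alone was called in that comparison (adjusted p = 0.0366), also with every array below the limit, where 24.5% of all genes passed. Sftpc was then called higher in A2C12 than in cRAF_cMYC (adjusted p = 0.0272), with both groups below the limit. Without replicate 1 of cRAF_cMYC nonSP, Ager (-1.22, adjusted p = 0.00904) and Nkx2-1 (adjusted p = 0.0227) were called lower in A2C12 than in cRAF_cMYC as deposited, where 34.5% of all genes passed.

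Wider lists of marker genes were read against the same limit. Passing it does not by itself show a transcript, so the counts do not show that a part of the lung programme was present. Of 14 measured type II genes, 7 in A2C12, 5 in betaD5 and 6 in cRAF_cMYC had means above the limit in both fractions. As deposited, 1 of the 14 was called higher and 7 lower in A2C12 than in betaD5 (median -0.62, against -0.73 for all genes), and after centring 2 were called higher and none lower. Of all genes, 58.1% passed in that comparison as deposited (56.2% lower) and 15.6% centred, and the counts of every list below stand against the same shares. Abca3, the lipid transporter of lamellar bodies, was above the limit on 18 arrays at 9.09 ± 0.01 in A2C12 nonSP cells, against 10.15 ± 0.11 in betaD5 nonSP cells (limma's adjusted p = 0.00642 as deposited and 0.367 centred). Lpcat1, which makes surfactant phosphatidylcholine, was likewise above it on 18 arrays at 8.53 ± 0.13 in A2C12, against 9.81 ± 0.24 in betaD5 (adjusted p = 0.00419 and 0.138).

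Cxcl15, a chemokine of the lung epithelium, was called in both comparisons of A2C12 on both scales. It averaged 10.02 ± 0.80 in A2C12 nonSP cells, against 6.33 ± 2.20 in betaD5 nonSP cells (3.69, limma's adjusted p = 0.0307) and 5.99 ± 2.84 in cRAF_cMYC nonSP cells (4.03, adjusted p = 0.0452). With centred arrays the differences were 4.39 (adjusted p = 0.0433) and 4.41 (0.048). It was above the limit on 3 of 3 A2C12 arrays and on 1 of 3 in each of the other lines, so these differences rest partly on signals below it. With the limit in place of such signals the means of the other lines were 7.6 in betaD5 and 7.47 in cRAF_cMYC. Chil1, a chitinase-like gene, was below the limit on every array.

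Of 13 type I genes, 8 in A2C12, 6 in betaD5 and 7 in cRAF_cMYC were above the limit in both fractions. Igfbp2, a growth factor binding protein gene, was at least 5.74-fold higher in A2C12 than in betaD5 nonSP cells and at least 8.05-fold higher than in cRAF_cMYC nonSP cells, where no array passed the limit, so the limit stood in for their level (at least 9.3-fold and 10.5-fold with centred arrays). It averaged 9.65 ± 2.15 in A2C12, against 4.97 ± 0.58 in betaD5 (limma's adjusted p = 0.00038) and 4.89 ± 0.48 in cRAF_cMYC (adjusted p = 0.000748). Hopx, a homeodomain gene of type I cells, was above the limit on 18 arrays and averaged 9.81 ± 0.12 in A2C12, against 8.34 ± 0.60 in betaD5 (1.47, adjusted p = 0.000834) and 7.89 ± 0.39 in cRAF_cMYC (1.93, adjusted p = 0.00022). With centred arrays these were 2.17 (adjusted p = 1.2e-05) and 2.31 (6.47e-06).

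Not every type I gene ran that way. Gprc5a, a receptor gene of alveolar cells, averaged 7.73 ± 0.15 in A2C12, against 9.44 ± 0.42 in betaD5 (-1.71, limma's adjusted p = 0.00255, and -1.02, 0.0309, centred). Cav1, the caveolin gene, averaged 12.33 ± 0.17 in A2C12, against 13.49 ± 0.04 in betaD5 (-1.16, adjusted p = 0.000111), a call that centring ended (-0.46, 0.0567). In all, 2 type I genes were called higher and 6 lower in A2C12 than in betaD5 as deposited, where 58.1% of all genes passed, and 3 higher and 1 lower once centred, where 15.6% did.

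Airway markers were mostly at background. Of 10 measured club and secretory genes, 2 in A2C12 and 1 in each other line were above the limit in both fractions, as was 1 of 9 ciliated genes in each line. Scgb3a2 and Cyp2f2, a secretoglobin and a cytochrome P450 of club cells, and Dynlrb2 and Ccdc113 of ciliated cells were below the limit on every array. Aldh1a7 passed on 2 arrays, and Pon1 on none. As deposited, 4 club and 2 ciliated genes were called lower in A2C12 than in betaD5, where 56.2% of all genes were lower, and with centring none was called lower, where 8.24% of all genes were.

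Basal markers gave 1 of 6 above the limit in A2C12 and cRAF_cMYC and 0 in betaD5. Trp63, the basal cell p53 relative, was above it on 3 of 3 A2C12 nonSP arrays and on 0 of 3 in each other line, at 7.05 ± 0.33 in A2C12, against 5.30 ± 0.33 in betaD5 (limma's adjusted p = 0.000283) and 5.56 ± 0.39 in cRAF_cMYC (0.00222). With the limit in place of their signals, A2C12 was not higher than betaD5 as deposited and was at least 1.53-fold higher centred, and it was at least 1.33-fold higher than cRAF_cMYC (1.73-fold centred). Krt14, Krt5 and Aqp3 passed the limit on 3, 6 and 0 of 18 arrays. Of 4 neuroendocrine genes, 1 in cRAF_cMYC was above the limit in both fractions, while Syp, Resp18 and Chga were below it on every array.

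Among 16 transcription factors of the lung epithelium, 9 in A2C12 and cRAF_cMYC and 8 in betaD5 were above the limit in both fractions. Gata6, a zinc finger factor of the distal lung, was above it on 18 arrays and averaged 6.85 ± 0.26 in A2C12 nonSP cells, against 11.30 ± 0.16 in betaD5 (-4.46, limma's adjusted p = 2.56e-07) and 10.66 ± 0.70 in cRAF_cMYC (-3.82, adjusted p = 1.99e-06). With centred arrays the differences were -3.76 (adjusted p = 3.06e-06) and -3.44 (8.31e-06). Foxa1, the close relative of Foxa2, was below the limit on 18 of 18 arrays. Foxp1, a repressor that acts in airway epithelium, was above it on 18, and Foxp2, its relative, on 1.

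General epithelial genes were above the limit for 8 of 20 measured in each line. Epcam, an adhesion molecule, was above it on 18 arrays at 8.22 ± 0.19 in A2C12 nonSP cells, against 9.41 ± 0.49 in betaD5 (limma's adjusted p = 0.00412, and 0.25 centred). Cdh1, the gene of E-cadherin, was above it on 2 of 3 A2C12 nonSP arrays and on 0 of 3 in each other line, at 6.31 ± 0.47 in A2C12, against 4.76 ± 0.45 in betaD5 (adjusted p = 0.00421) and 3.87 ± 0.36 in cRAF_cMYC (0.000448). With the limit in place of those signals, A2C12 was not higher than either line as deposited, so no fold is given. Krt7, a simple epithelial keratin, passed on 2 of 18 arrays and Ocln, a tight junction gene, on none. Of the same list, the simple epithelial keratin genes Krt8 and Krt19 and the tight junction gene Cldn3, which were chosen after their values were seen, were above the limit on 18 arrays.

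Markers of other cell types moved with the lines as well, and their part in the differences above was not tested. Of 21 fibroblast and mesenchymal genes, 16 in A2C12 and 19 in each other line were above the limit in both fractions. Zeb1, a repressor of epithelial genes, averaged 9.08 ± 0.04 in A2C12 nonSP cells, against 11.34 ± 0.20 in betaD5 (-2.25, limma's adjusted p = 1.32e-05, and -1.56 centred) and 11.06 ± 0.49 in cRAF_cMYC (-1.97, adjusted p = 8.7e-05, and -1.59 centred). Dcn, a matrix proteoglycan gene, averaged 9.44 ± 1.52 in A2C12, against 12.75 ± 0.97 in betaD5 (-3.31, adjusted p = 0.00104) and 13.19 ± 0.40 in cRAF_cMYC (-3.75, adjusted p = 0.00099). Centred, these were -2.62 (adjusted p = 0.0169) and -3.37 (0.00396). Tagln, a smooth muscle gene, was also lower in A2C12 than in betaD5 (-2.79, adjusted p = 0.0132, and -2.10, 0.146, centred). Postn, a matrix gene, was above the limit on 6 arrays and passed against cRAF_cMYC as deposited (adjusted p = 0.0482) but not centred (0.124).

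Of 10 mesothelial genes, 3 in A2C12 and 7 in each other line were above the limit in both fractions, and 7 of 10 were called lower in A2C12 in each comparison as deposited, where 56.2% of all genes were lower than in betaD5 and 19.4% than in cRAF_cMYC. With centred arrays 6 of 10 were called lower in each, where 8.24% and 7.34% of all genes were. Upk3b, a uroplakin of the mesothelium, averaged 4.25 ± 0.39 in A2C12 nonSP cells, against 12.62 ± 1.25 in betaD5 and 12.73 ± 0.11 in cRAF_cMYC. It was at least 75.1-fold lower in A2C12 than in betaD5 (limma's adjusted p = 3.59e-09) and at least 80.9-fold lower than in cRAF_cMYC (3.58e-09). With centred arrays these bounds were 46.3-fold and 62.2-fold. Gpm6a, a membrane glycoprotein gene, was at least 79.7-fold and at least 46.6-fold lower in those comparisons, Lrrn4 at least 22.9-fold and 30.8-fold, and Bnc1 at least 33.1-fold and 19.8-fold. Centred, the bounds were 49.2-fold and 35.9-fold for Gpm6a, 14.1-fold and 23.6-fold for Lrrn4, and 20.4-fold and 15.2-fold for Bnc1. These genes were below the limit on every A2C12 array and above it on all 12 others.

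Gastrointestinal markers, which some lung adenocarcinomas gain, were above the limit in both fractions for 2 of 9 genes in A2C12 and cRAF_cMYC and 1 in betaD5. Ctse, the cathepsin E gene, was at least 2.73-fold higher in A2C12 than in betaD5 nonSP cells (limma's adjusted p = 0.000734) and at least 3.83-fold higher than in cRAF_cMYC nonSP cells (0.000322). With centred arrays these bounds were 4.42-fold and 4.98-fold. Hnf4a, a nuclear receptor of gut and liver, passed the limit on 5 of 18 arrays and Pigr, an immunoglobulin receptor gene, on none.

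Leukocyte genes were above the limit in both fractions for 3 of 9 in A2C12 and cRAF_cMYC and 4 in betaD5, while Ptprc, Adgre1 and Tyrobp, which define leukocytes and macrophages, were below it on every array. Of the same list, Csf1r, a macrophage receptor gene, and Cd3e were above it on 18 arrays and Cd68, a lysosomal gene of macrophages, on 14. Endothelial genes gave 1 of 9 in each line, with Kdr above the limit on 17 arrays and Tek and Emcn on none. In the mean of the lines, 0 genes of any list, among them 0 of 14 type II and 0 of 13 type I genes, were called between SP and nonSP cells in limma, in the fit with or without pairs.

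**Figure D5:**
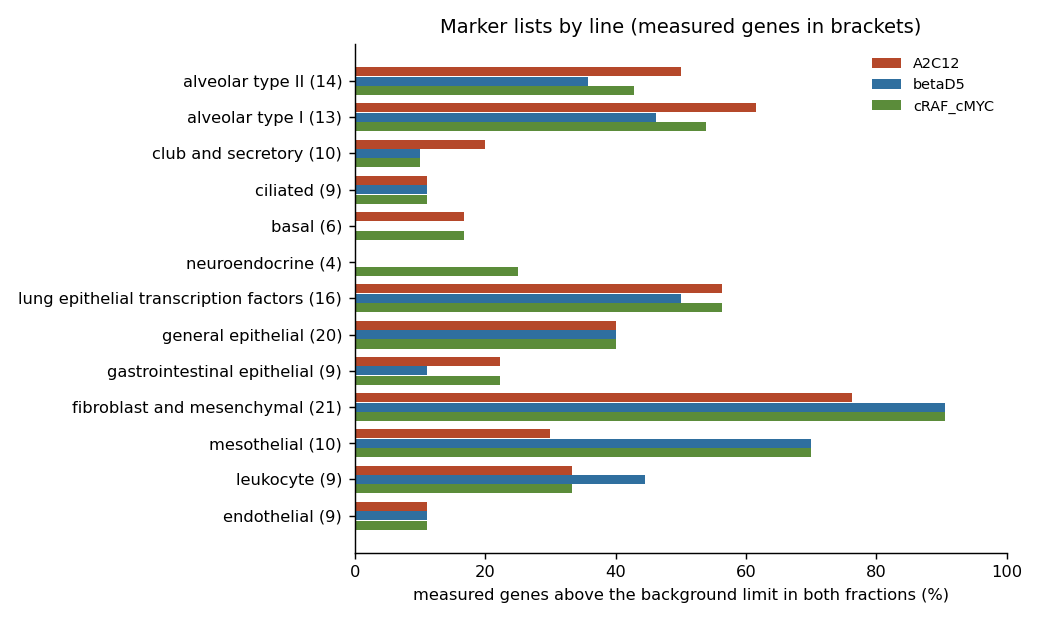
Share of the measured genes of each marker list (vertical axis, number of genes in brackets) whose group means were above the background limit in both fractions, in percent (horizontal axis), by line. Fibroblast and mesenchymal genes have the highest shares, 16 of 21 in A2C12 and 19 of 21 in the other lines, and mesothelial genes 3 of 10 in A2C12 and 7 of 10 in the others.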

How the data were processed

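Affymetrix 3' expression arrays were run by the authors on 18 samples. What the authors deposited is a table of log2 signals covering 45101 probe sets on each array. Affymetrix Expression Console is named in the submitters' processing notes, and the summary algorithm and normalization are not given in the sources used here. Array signals carry no counts, so the number of arrays limits the precision.

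No further scaling was applied in the main analysis. The 64 control probe sets and 932 probe sets with several gene symbols were left out, 34945 carried 1 symbol (34741 matched to current names), and each of 18193 genes was represented by the probe set of greatest average signal. No filter on low signals was used, since it would decide which markers are tested. R 4.3.3 with limma 3.58.1 (lmFit, contrasts.fit, eBayes with a trend) fitted 6 group means to 18 arrays. Tests were two-sided, Benjamini-Hochberg adjusted over all genes and called under 0.05. The fit was tested on simulated data with independent noise on each array, so that test does not cover arrays correlated within pairs, as these were. A gene counts as above background in a group when its mean lies above the mean limit of the arrays. Where a group lay below the limit on every array, "at least" folds set the higher of limit and signal in its place.

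Replicate numbers were taken as pairs because, once group means were subtracted, arrays with the same number correlated at 0.548 to 0.932 in 9 of 9 pairs; the paired fit has the pair as a block. Of each wider list, up to 4 genes past the threshold in a line comparison with the largest differences are named, and for each member above background in a group, the 3 most correlated genes, skipping predicted genes that lack a standard symbol. Genes named outside that rule (Cd3e, Csf1r, Cd68, Krt8, Krt19 and Cldn3) were chosen after their values were seen. The members and lists were chosen with earlier results of these data known.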

Additional observations from a re-analysis of the deposited data

How the results depend on the processing

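The replicate block changed no call: SP against nonSP gave 0 genes with and without it in A2C12, betaD5, cRAF_cMYC and the mean of the lines. Next, the mean log2 3'/5' ratio of Gapdh and Actb was set beside the block. Then 12 genes were called in betaD5 and 3 in the mean of the lines, none a member. Without the 2 pairs that stood apart, 1 gene was called in betaD5, and 27 with the block as well, an alternative added after seeing the data. At the 90th percentile of the background probe sets 5 members were above background in every group but A2C12 SP, where 4 were. Nkx2-1 was among the 5 in both fractions of betaD5 and cRAF_cMYC, and Sftpc in A2C12 nonSP cells. At the 99th percentile 2 (Ager and Foxa2) were above it in both fractions of betaD5 and in cRAF_cMYC nonSP cells. In the other groups 3 were, with Sftpb. For A2C12 against betaD5, 10568 genes (338 higher, 10230 lower) became 2840 (1340 higher, 1500 lower) with centring, 3399 with quantile normalization, 6021 and 4133 with the 40% and 60% lowest genes left out, 20032 over every probe set and 4455 with centring and without the 2 pairs; without single arrays or pairs they ran from 6954 to 11763. For A2C12 against cRAF_cMYC, 3884 (348 higher, 3536 lower) became 2346 (1011 higher, 1335 lower) with centring, 2426 with the 60% filter and 6602 over every probe set, and ran from 1481 to 7525 without single arrays or pairs. For cRAF_cMYC against betaD5, 0 became 2448 without the 2 pairs, and 2226 with centring as well. Slc34a2 in A2C12 against betaD5 turned to 0.017 with quantile normalization, 0.042 with centring and 0.024 with centring without the 2 pairs. Of 3362 values of members under alternatives, 3317 kept their side of the threshold, among them 381 that stayed uncalled and changed sign. Most belong to comparisons in which 0% of all genes passed as deposited, so staying uncalled says little. The 3 calls as deposited for A2C12 against betaD5 were all lost with centring. The cause of these changes was not tested, apart from the fewer or more features that filters and probe sets leave. Limits: most members lie at background, where signals do not measure transcripts, and 3 arrays a group leave wide intervals.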
